A study of Mus musculus with 27 samples.

Results

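Fibronectin and 7 matricellular or adhesive matrix genes, Fn1, Tnc, Postn, Sparc, Sparcl1, Thbs1, Thbs2 and Tgfbi, were followed through 27 RNA-seq libraries. The genes were chosen by symbol, and all 8 had a row among the 54446 gene identifiers counted. Levels are read counts scaled to 1000000 gene-assigned reads in each library (CPM). Libraries came from sorted cells of 12-week-old mice of the NOD strain, which develops autoimmune diabetes, without a transgene (NOD/ShiLtJ, TG-) or with Ins2-CCL21 (TG+), in which an insulin promoter directs the chemokine CCL21 to beta cells. The labels name leukocytes of the islet infiltrate (CD45; 4 TG- and 4 TG+), stromal cells of islet lymphoid aggregates with high gp38 (2 and 2) or low gp38 (4 and 4), and fibroblastic reticular cells (FRCs), the stroma of the T cell zone, from lymph nodes draining the skin (4 and 3). Nothing in the labels says that replicates are separate animals, so each p-value speaks only of the spread between libraries, some of which could be technical.

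Fibronectin is secreted as a soluble dimer, is bound by integrins at the cell surface and is pulled into fibrils on which other matrix proteins assemble. Matricellular proteins join that matrix but do not build its framework: they bind collagens, fibronectin, growth factors and cell receptors and change how firmly cells adhere. Stromal fibroblasts are their usual source, and macrophages, platelets and endothelial cells also make some of them.

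The libraries did not follow their labels. The leukocyte gene Ptprc, which encodes CD45, exceeded 100 CPM in 1 of 8 libraries labelled CD45, in 2 of 12 labelled gp38-high or gp38-low and in 5 of 7 labelled lymph node FRC. Results are therefore given by 4 library classes set by 3 genes that are not among the 8: Ptprc above 100 CPM (Ptprc-high, 8 libraries, 5 TG- and 3 TG+), Ccl21a, a chemokine of lymphoid stroma, above 1000 CPM (Ccl21a-high, 7 libraries, 4 and 3), Msln, a mesothelial surface protein, above 100 CPM (Msln-high, 4 libraries, 3 and 1), and the remaining 8 (2 and 6). No library passed more than 1 threshold. The nearest values on either side were 169 and 5.79 CPM for Ptprc, 2162 and 5.28 CPM for Ccl21a, and 573 and 2.52 CPM for Msln. Each class held libraries of at least 3 labelled groups, and all 7 Ccl21a-high libraries were labelled islet. Marker genes separated the classes further. A list of 6 fibroblast genes summed to 30353 to 41658 CPM in the remaining libraries and to 24.1 to 113 CPM in the Ptprc-high ones. Its sums of 15977 to 22711 CPM in the Ccl21a-high and 12831 to 26143 CPM in the Msln-high libraries lay below the remaining class. A list of 6 pericyte and smooth muscle genes summed to 3225 to 4643 CPM in the Ccl21a-high libraries, 222 to 381 in the Msln-high and 146 to 232 in the remaining libraries. Pancreatic acinar genes summed to 96.8 to 10691 CPM in the remaining libraries, 288 to 3921 in the Ptprc-high and at most 1.92 in the Ccl21a-high libraries. Their part in the results below was not tested. Between 8517844 and 25194443 reads per library fell in genes, so that 3 reads, the most that a count of 0 allows, were worth 0.119 to 0.352 CPM. These floors cover counting error only. The non-coding gene Gm26917 alone took 5.31% to 36.0% of these reads.

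All 8 genes were abundant in the 3 classes with fibroblast transcripts, each with its own order of levels. By median, 7 of the 8 were lower in the Ptprc-high libraries than in each of these 3 classes, and Tgfbi was not. Fn1 overlapped there with the Msln-high class. Per kilobase of exon the first gene was Sparc in the remaining libraries, with a median of 910.1 CPM per kb, followed by Fn1 at 592 and Sparcl1 at 229.7. Sparc also led in the Msln-high libraries at 510.3, ahead of Fn1 at 153. In the Ccl21a-high class Tgfbi, at 393 CPM per kb, stood between Sparc at 498 and Fn1 at 342. Tgfbi led in the Ptprc-high class at 81.1, ahead of Fn1 at 22.9, Thbs1 at 3.35 and Sparc at 1.99 CPM per kb. Tnc was last in 3 of the 4 classes per kilobase, at 10.4, 6.36 and 0.0150 CPM per kb in the remaining, Msln-high and Ptprc-high libraries, and Sparcl1 was last in the Ccl21a-high class at 25.9.

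**Figure D1:**
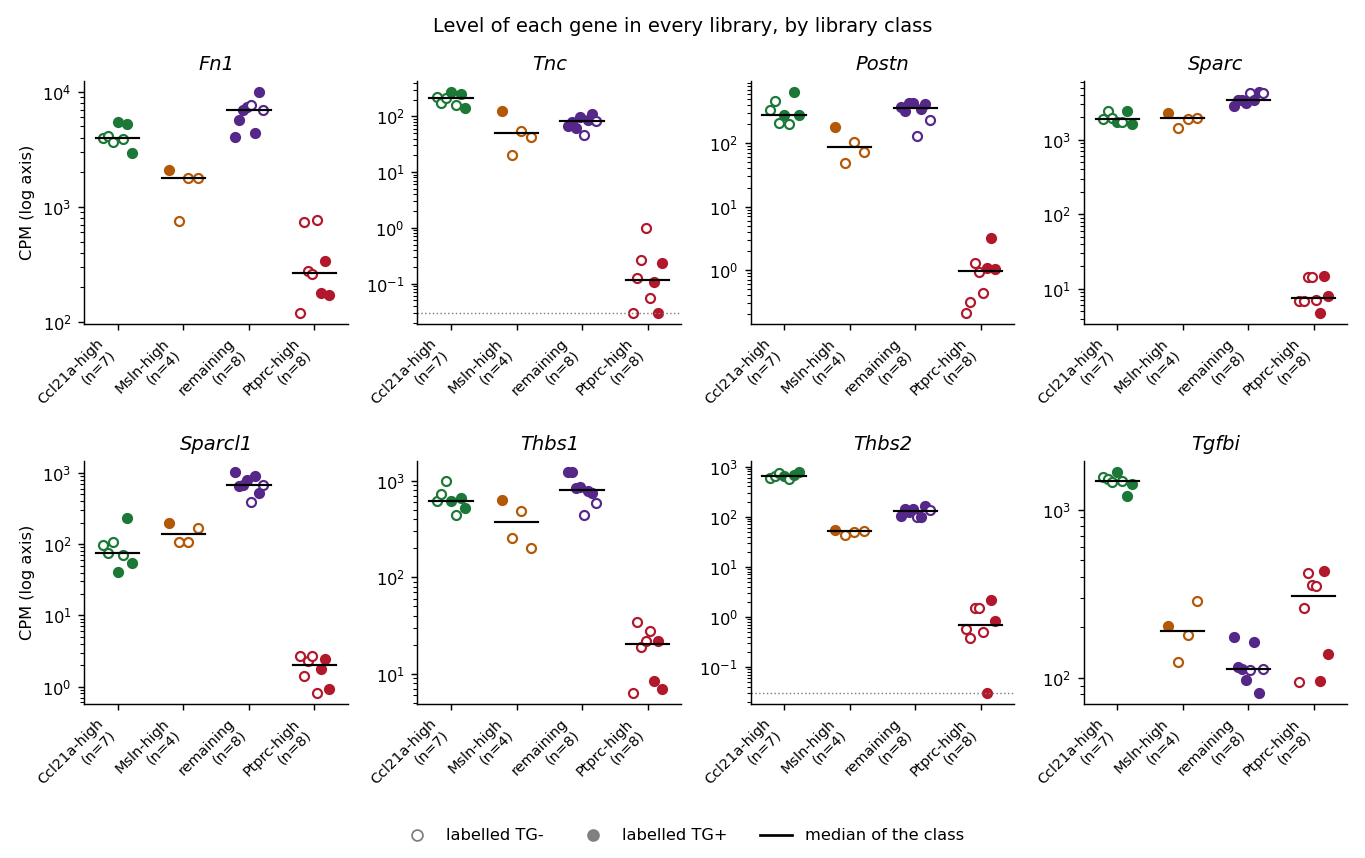
CPM (log axis) of the 8 genes in each of the 27 libraries by library class, with open points for TG- and filled points for TG+ labels, a black bar at each class median and values of 0 drawn on the dotted line. The Ptprc-high libraries lie far below the others for 6 genes, and for Fn1 their range meets the lowest Msln-high library. Tgfbi is highest in the Ccl21a-high libraries and overlaps between the other 3 classes.

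Fn1 (ENSMUSG00000026193.15, mm10 chr1:71585520-71653200, minus strand) encodes fibronectin, the fibril-forming ligand of integrins alpha5 beta1 and alpha4 beta1. It ranged from 4028 to 9939 CPM with a median of 6922 in the remaining libraries and from 2913 to 5487 with a median of 3999 in the Ccl21a-high ones. The Msln-high libraries held 752, 1782, 1791 and 2107 CPM. The Ptprc-high libraries held 120.4 to 771 CPM, with a median of 267. The first 2 classes overlapped, the Msln-high class lay below both, and the Ptprc-high range met the Msln-high range only at its lowest library, labelled gp38-high TG- replicate 1. Fn1 was 4.97-fold lower in Msln-high than in remaining libraries (log2 difference -2.31 ± 0.45, SE; edgeR's quasi-likelihood test, Benjamini-Hochberg adjusted p = 1.95e-04). It was 3.30-fold higher in Ccl21a-high than in Msln-high libraries (1.72 ± 0.44; edgeR adjusted p = 0.00214). Between Ccl21a-high and remaining libraries the difference of -0.59 ± 0.34 did not pass (edgeR adjusted p = 0.162).

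Tnc (ENSMUSG00000028364.15, chr4:63959785-64047015, minus strand) encodes tenascin-C, a hexameric protein that weakens adhesion to fibronectin and is present in lymphoid reticular fibres. It reached 140.4 to 272 CPM in the Ccl21a-high libraries (median 217) and 45.3 to 109 CPM in the remaining ones (median 81.0). Msln-high libraries were at 20.4, 43.3, 55.5 and 122 CPM. The Ccl21a-high class lay above both others without overlap, and the other classes overlapped. Tnc was 2.82-fold higher in Ccl21a-high than in remaining libraries (log2 difference 1.49 ± 0.31, edgeR adjusted p = 1.93e-04) and 4.26-fold higher than in Msln-high ones (2.09 ± 0.41, edgeR adjusted p = 1.04e-04). The difference of -0.59 ± 0.37 between Msln-high and remaining libraries did not pass (edgeR adjusted p = 0.220). Without the library labelled CD45 TG+ replicate 1, which held the 122 CPM, it was -1.25 and passed (edgeR adjusted p = 0.0117).

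Postn and Tgfbi encode the 2 secreted proteins built of fasciclin domains in this set, periostin and the TGF-beta-induced protein, both of which bind integrins and collagens. Postn (ENSMUSG00000027750.16, chr3:54361109-54391037, plus strand) ranged from 131 to 434 CPM in the remaining libraries (median 358) and from 201 to 640 CPM in the Ccl21a-high ones (median 283). Its Msln-high values of 48.0, 71.7, 106 and 180.2 CPM lay below the Ccl21a-high range and overlapped the remaining range through 1 library on each side. Postn was 3.79-fold lower in Msln-high than in remaining libraries (log2 difference -1.92 ± 0.41, edgeR adjusted p = 5.62e-04) and 4.21-fold higher in Ccl21a-high than in Msln-high ones (2.07 ± 0.42, edgeR adjusted p = 1.81e-04). Ccl21a-high and remaining libraries differed by 0.15 ± 0.32 (edgeR adjusted p = 0.730).

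Tgfbi (ENSMUSG00000035493.10, chr13:56609523-56639562, plus strand) departed from the other genes. It held 1208 to 1669 CPM in the Ccl21a-high libraries (median 1480.5), a narrow range with a coefficient of variation of 9.72%. The Msln-high libraries held 124, 179.6, 204 and 287 CPM, and the remaining ones 81.6 to 176 CPM (median 113). Every Ccl21a-high library exceeded every library of the other 3 classes. Tgfbi was 13.2-fold higher in Ccl21a-high than in remaining libraries (log2 difference 3.73 ± 0.28, edgeR adjusted p = 8.46e-12) and 9.53-fold higher than in Msln-high ones (3.25 ± 0.37, edgeR adjusted p = 2.43e-08). Msln-high and remaining libraries differed by 0.47 ± 0.30 (edgeR adjusted p = 0.231).

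Sparc (ENSMUSG00000018593.13, chr11:55394500-55423183, minus strand) encodes osteonectin, a collagen-binding protein that takes part in collagen fibril formation, and Sparcl1 (ENSMUSG00000029309.7, chr5:104079111-104113733, minus strand) its relative hevin. Sparc ranged from 2858 to 4361 CPM in the remaining libraries (median 3447) and from 1623 to 2457 in the Ccl21a-high ones (median 1885). The Msln-high libraries held 1420.3, 1925, 1941 and 2285 CPM. The remaining libraries lay above both, which overlapped each other. Sparc was 1.75-fold lower in Ccl21a-high (log2 difference -0.81 ± 0.20, edgeR adjusted p = 0.00164) and 2.34-fold lower in Msln-high (-1.23 ± 0.25, edgeR adjusted p = 3.54e-04) than in remaining libraries.

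Sparcl1 was also highest in the remaining libraries, with wider gaps. It ranged from 396 to 1025 CPM in the remaining libraries (median 674) and from 41.0 to 235 CPM in the Ccl21a-high ones (median 76.0). Values of 107, 109, 169 and 201 CPM were found in the Msln-high libraries. Each remaining library was above each library of both other classes, which again overlapped. Sparcl1 was 6.69-fold lower in Ccl21a-high (-2.74 ± 0.29, edgeR adjusted p = 6.65e-09) and 5.64-fold lower in Msln-high (-2.50 ± 0.36, edgeR adjusted p = 3.44e-06) than in remaining libraries. Within the Ccl21a-high class its coefficient of variation was 66.7%, against 16.8% for Sparc, and the 235 CPM came from the library labelled gp38-low TG+ replicate 1, with 109 CPM the next highest.

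Thbs1 and Thbs2 encode the trimeric thrombospondins 1 and 2, which bind CD47, CD36 and integrins. Thbs1 is also an activator of latent TGF-beta. Thbs1 (ENSMUSG00000040152.8, chr2:118111876-118127133, plus strand) ranged from 438 to 1229 CPM in the remaining libraries (median 814) and from 441 to 989 in the Ccl21a-high ones (median 623). The Msln-high libraries held 202, 257, 491 and 633 CPM, and the 3 ranges overlapped. Thbs1 was 2.46-fold lower in Msln-high than in remaining libraries (log2 difference -1.30 ± 0.38, edgeR adjusted p = 0.00807), and Ccl21a-high and remaining libraries differed by -0.21 ± 0.30 (edgeR adjusted p = 0.600). The excess of 1.09 ± 0.38 in Ccl21a-high over Msln-high libraries (edgeR adjusted p = 0.0213) was lost without any 1 of the libraries labelled CD45 TG- replicate 3 (edgeR adjusted p = 0.0514), gp38-high TG- replicate 1 (0.0891) and lymph node FRC TG- replicate 2 (0.0920).

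Thbs2 (ENSMUSG00000023885.9, chr17:14665500-14694235, minus strand) had tight and separate levels in the 3 classes. It held 558 to 767 CPM in the Ccl21a-high libraries (median 651), 96.2 to 163 CPM in the remaining ones (median 131), and 43.3, 50.4, 52.3 and 53.5 CPM in the Msln-high libraries. No pair of these classes overlapped. Thbs2 was 5.60-fold higher in Ccl21a-high than in remaining libraries (log2 difference 2.49 ± 0.25, edgeR adjusted p = 1.84e-09), 17.1-fold higher than in Msln-high ones (4.10 ± 0.36, edgeR adjusted p = 1.51e-10) and 3.06-fold lower in Msln-high than in remaining libraries (-1.61 ± 0.31, edgeR adjusted p = 1.42e-04).

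**Figure D2:**
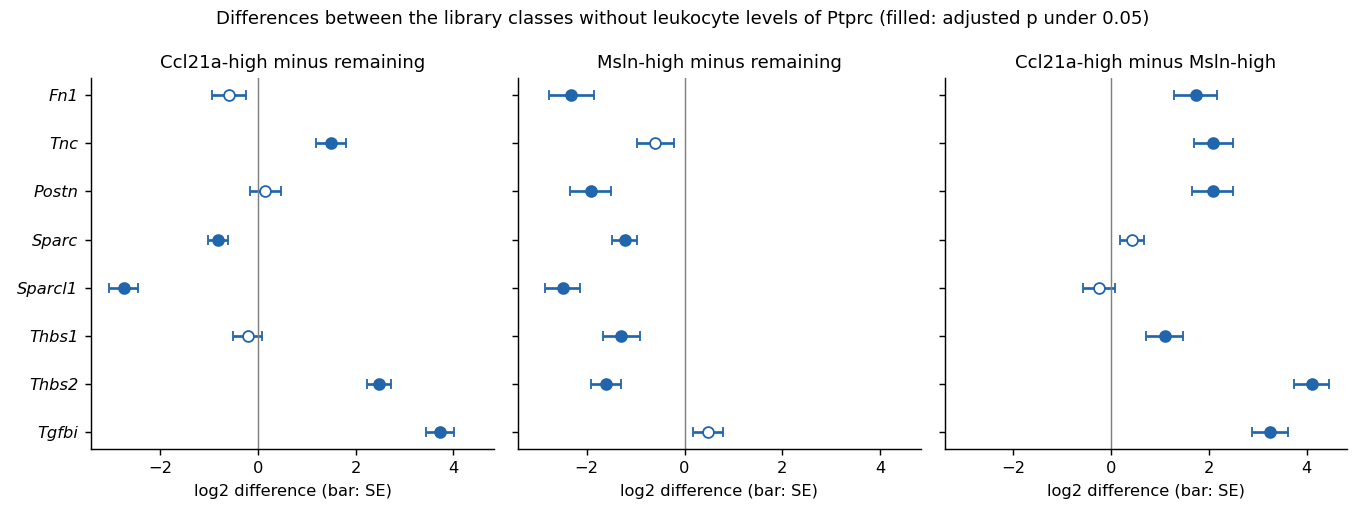
Log2 differences (x axis) with SE bars for the 8 genes between Ccl21a-high and remaining (left), Msln-high and remaining (middle) and Ccl21a-high and Msln-high libraries (right), filled where the edgeR adjusted p was under 0.05. Tnc, Thbs2 and Tgfbi lie right of 0 and Sparc and Sparcl1 left of it in the left panel, and 6 filled points lie left of 0 in the middle panel.

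Counted over the set, Ccl21a-high libraries exceeded remaining ones for 3 genes (Tnc, Thbs2, Tgfbi) and were lower for 2 (Sparc, Sparcl1), 5 of 8 called. Of all 17913 genes tested, 46.7% were called in that contrast, 22.6% higher and 24.1% lower, and the median log2 difference was -0.03 over the 8 and -0.0022 over all. Msln-high libraries were lower than remaining ones for 6 genes and higher for 0, where 36.5% of all genes were called, 18.1% higher and 18.4% lower. The median was -1.46 over the 8 and -0.02 over all. Ccl21a-high libraries exceeded Msln-high ones for 6 genes and were lower for 0, where 42.8% of all genes were called, 21.2% higher and 21.6% lower. Without overlap, 3 of the 8 were higher in Ccl21a-high than in remaining libraries (9.77% of 14965 genes with a mean of at least 1 CPM) and 2 lower (16.2%), 4 were lower in Msln-high than in remaining ones (8.40%) and 5 were higher in Ccl21a-high than in Msln-high ones (10.1%). The tests use TMM scaling, which relative to the remaining class moves the plain CPM by -0.24 in Msln-high, 0.08 in Ccl21a-high and 0.22 in Ptprc-high libraries on the log2 scale. The classes differed in a large share of all genes, and the counts for the 8 stand against those shares. The classes are not the study's groups: they rest on 3 genes measured in the same libraries. In bulk samples, fewer cells of a type and less RNA per cell cannot be told apart. When all 3 class thresholds were doubled, the Ptprc-high library with 169 CPM (lymph node FRC TG- replicate 4) moved into the remaining class, and the calls of Sparc in the first contrast, of Postn, Sparc, Thbs1 and Thbs2 in the second and of Thbs1 in the third were lost (edgeR adjusted p = 0.0757 to 0.318).

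Tnc, Thbs2 and Tgfbi were the 3 genes higher in the Ccl21a-high class than in both others, and RefSeq promoter sequences (GRCm38.p6) were at hand for all 3 among 5 of the 8 genes. They are printed 5′ to 3′, from the window before the RefSeq start, without bases of the annotated gene. The Thbs2 window ends 27 bases before that gene. The RefSeq start used for Tgfbi lies 63 bases inside the annotated gene, so only the first 187 bases of its window are printed. Capitals mark the 2 motifs found, TATAAA (the letters of a TATA box; written TTTATA where on the other strand) and GGGCGG (the core of a GC box).
Tnc, chr4:64047016-64047265, minus strand: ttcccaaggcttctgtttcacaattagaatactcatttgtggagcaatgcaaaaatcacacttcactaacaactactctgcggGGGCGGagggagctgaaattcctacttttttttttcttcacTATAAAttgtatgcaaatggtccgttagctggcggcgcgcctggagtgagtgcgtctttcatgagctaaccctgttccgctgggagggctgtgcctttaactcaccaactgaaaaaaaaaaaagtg
Thbs2, chr17:14694263-14694512, minus strand: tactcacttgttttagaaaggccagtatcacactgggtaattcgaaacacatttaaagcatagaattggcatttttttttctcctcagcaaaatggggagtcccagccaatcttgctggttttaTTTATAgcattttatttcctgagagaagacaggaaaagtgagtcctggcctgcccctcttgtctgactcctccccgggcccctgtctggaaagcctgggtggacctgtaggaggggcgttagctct
Tgfbi, chr13:56609336-56609522, plus strand: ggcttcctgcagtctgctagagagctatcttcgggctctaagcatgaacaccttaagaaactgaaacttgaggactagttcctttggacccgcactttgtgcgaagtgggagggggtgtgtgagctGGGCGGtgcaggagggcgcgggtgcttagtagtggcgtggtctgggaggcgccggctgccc
The windows of 250 bases before each RefSeq start were searched on both strands for these motifs, for the AP-1 motif TGANTCA and for the TEAD motif CATTCC, and no matches overlapped. Counted from the RefSeq start, Tnc held TATAAA at -126 to -121 and GGGCGG at -167 to -162. Thbs2 held TATAAA at -126 to -121 on the other strand, and Tgfbi held GGGCGG at -124 to -119. Of the other 2 promoters at hand, that of Postn held TATAAA at -26 to -21, the only match nearer the start than these, and that of Sparc held none of the 4 motifs. The RefSeq start used for Sparc lies 3103 bases inside the annotated gene, so its window does not cover the sequence before the annotated start. Of 32851 promoter windows of that length, 12.4% held TATAAA, 32.7% GGGCGG, 6.75% TGANTCA and 12.6% CATTCC. The 3 promoters shared no single motif of the 4.

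To see which genes leukocytes also expressed, each level in the 8 Ptprc-high libraries was set beside that of fibroblast genes. Col1a1, Col1a2, Col3a1 and Dcn summed there to 0.0915% to 0.419% of their median in the other 19 libraries. That share was used as the level to exceed. Tgfbi was at 53.1% to 242% of its median in the other 19 libraries, with a median of 170%, and at least 347 times the fibroblast share in each of the 8. Fn1 was at 2.90% to 18.6% (median 6.44%), which is 18.5 to 155 times the fibroblast share. Thbs1 was at 0.996% to 5.40% (median 3.21%), or 4.94 to 36.9 times that share. The other 5 genes were closer to it. Sparcl1 was at 0.404% to 1.35%, or 2.04 to 11.0 times the fibroblast share, and Sparc at 0.199% to 0.611%, or 1.46 to 2.44 times. Thbs2 exceeded the share in 7 of 8 libraries, Postn in 6 and Tnc in 3, none of them above 4.20 times. The other 19 libraries mix 3 classes, so each multiple also depends on which stroma any trace came from. Thbs2 had a median of 142 CPM over the 19 but 651 CPM in the Ccl21a-high libraries. Sparcl1 had 201 CPM over the 19 but 674 CPM in the remaining ones. Exceeding the share by a few times therefore does not show expression by leukocytes. Tnc had no more than 3 reads in 7 of the 8 libraries, which is at or below the floor given above, so its level in those 7 is uncertain.

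**Figure D3:**
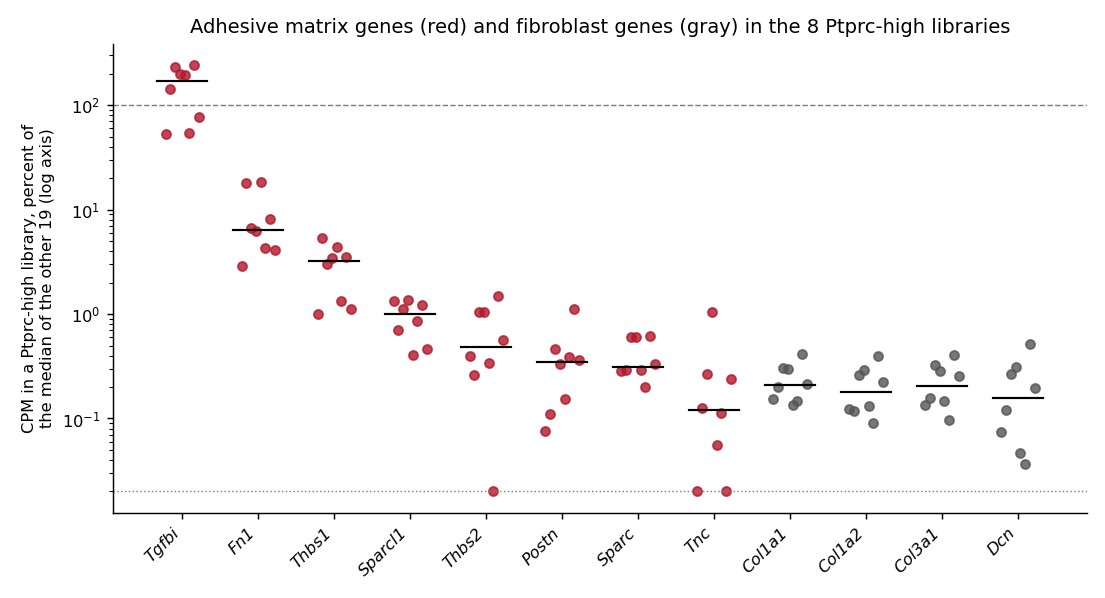
CPM in each of the 8 Ptprc-high libraries as a percent of the gene's median in the other 19 libraries (log axis), for the 8 adhesive matrix genes in red and 4 fibroblast genes in gray, with a black bar at the median, a dashed line at 100% and values of 0 drawn on the dotted line. Tgfbi lies around 100%, Fn1 and Thbs1 lie above the gray points, and Sparc, Postn and Tnc lie near them.

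Against the mean of the other 3 classes on the log2 scale, 7 of the 8 genes were lower in the Ptprc-high libraries, where 81.3% of all genes tested were called, 37.2% higher and 44.0% lower. Without overlap, 8 of the 8 were lower than in the Ccl21a-high libraries (28.5% of genes with a mean of at least 1 CPM), 7 lower than in the remaining (29.3%) and 6 lower than in the Msln-high ones (45.7%). The differences ran from -3.04 ± 0.33 for Fn1 and -4.77 ± 0.33 for Thbs1 to -7.71 ± 0.26 for Sparc and -8.49 ± 0.46 for Tnc, whose reads were near 0 in the Ptprc-high class (edgeR adjusted p = 2.36e-09 at most). Tgfbi did not pass, at -0.05 ± 0.22 (edgeR adjusted p = 0.857). Contrasts with each class in turn, added after the values were seen, resolved that mean. Tgfbi was 5.18-fold lower in Ptprc-high than in Ccl21a-high libraries (log2 difference -2.37 ± 0.27, edgeR adjusted p = 5.85e-09), 1.84-fold higher than in Msln-high ones (0.88 ± 0.32, edgeR adjusted p = 0.0145) and 2.56-fold higher than in remaining ones (1.35 ± 0.26, edgeR adjusted p = 2.62e-05), although the last 2 pairs of ranges overlapped. Fn1 was 10.7-fold, 3.23-fold and 16.0-fold lower than in these 3 classes (edgeR adjusted p = 2.86e-04 at most). Of all genes, 75.3%, 77.5% and 77.2% were called in these 3 contrasts.

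Tgfbi and Fn1 were not highest in the same Ptprc-high libraries. Tgfbi was highest in the libraries labelled lymph node FRC TG+ replicate 3 and gp38-low TG- replicate 1, at 434 and 419 CPM, followed by lymph node FRC TG- replicates 3 and 4 at 355 and 353 CPM. Adgre1, which encodes the macrophage protein F4/80, was also highest in the first 3 of these, at 513, 374 and 333 CPM, and was at 204 CPM in the fourth. In the 3 libraries lowest in Tgfbi (95.4, 96.7 and 139.6 CPM) Adgre1 was at 52.5, 64.8 and 136 CPM. Fn1 was highest in lymph node FRC TG- replicate 4 and gp38-high TG- replicate 2, at 771 and 747 CPM, and at most 336 CPM in the other 6. Those 2 libraries held Adgre1 at 204 and 174 CPM and the dendritic and myeloid integrin gene Itgax at 170.3 and 166 CPM, the 2 highest of the 8 values of Itgax. Flt3, another dendritic cell gene, was at 44.4 and 62.1 CPM in these 2, the first of them below 3 of the other 6 libraries. Csf1r, a further macrophage and monocyte gene, was at 1038 and 701 CPM in these 2. In the 3 libraries highest in Adgre1 it was at 1139, 817 and 788 CPM. Lyz2 and C1qa, from the same list as Csf1r, were lower in these 2 than in those 3, as Adgre1 was. Thbs1 was highest in the 2 libraries highest in Fn1, at 27.9 and 34.2 CPM. Of the platelet genes, Gp9 was at 0 in 7 of the 8 libraries and Ppbp at most 0.324 CPM, while Pf4, which macrophages can express too, was at 16.6 to 136 CPM. Of the endothelial genes, Cdh5 was at 1.96 to 5.83 CPM and Pecam1, which leukocytes and platelets express too, at 51.2 to 150.3 CPM. Which leukocyte type carried each transcript was not tested.

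Ratios of related genes within a library do not depend on its total count. Per kilobase, Thbs2 stood to Thbs1 at a median ratio of 0.858 in the Ccl21a-high libraries (0.653 to 1.27), against 0.137 in the remaining (0.0744 to 0.202) and 0.117 in the Msln-high libraries (0.0733 to 0.225). The Ccl21a-high range lay above the others, which overlapped. Sparcl1 stood to Sparc at a median of 0.0514 in the Ccl21a-high (0.0304 to 0.123), 0.106 in the Msln-high (0.0718 to 0.113) and 0.254 in the remaining libraries (0.122 to 0.462). The Ccl21a-high range overlapped both others. In the Ptprc-high libraries the median was 0.229 (0.147 to 0.505). Tgfbi stood to Postn at 11.5 in the Ccl21a-high libraries (4.36 to 17.0), 4.95 in the Msln-high (2.61 to 9.26) and 0.955 in the remaining ones (0.460 to 1.96), and at a median of 810.4 in the Ptprc-high libraries (205 to 1935). Postn had only 3 to 27 reads in the Ptprc-high libraries, so the size of that value is uncertain. The remaining class was below the other 3 classes without overlap for this last ratio.

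**Figure D4:**
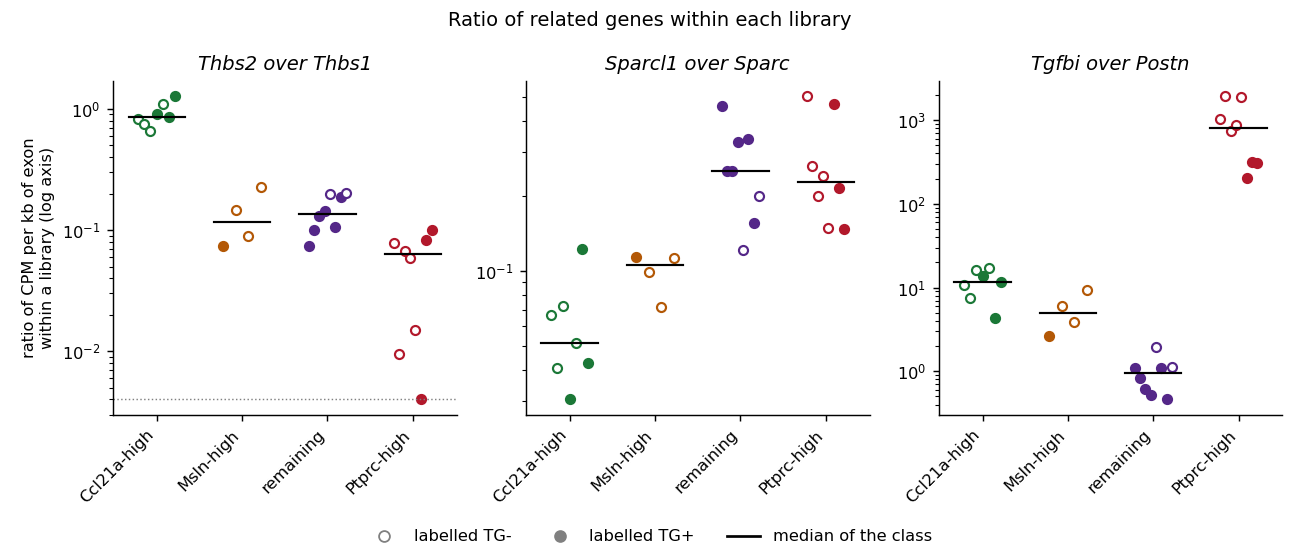
Ratio of CPM per kilobase of exon within each library (log axis) for Thbs2 over Thbs1, Sparcl1 over Sparc and Tgfbi over Postn by library class, open for TG- and filled for TG+, with black bars at class medians and a value of 0 drawn on the dotted line. The Ccl21a-high libraries are highest for the first ratio, and the remaining libraries are lowest for the third.

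Across the 27 libraries the log2 CPM of 7 genes, Tgfbi apart, varied together, with Pearson's r from 0.811 (Sparcl1 with Thbs2) to 0.975 (Postn with Sparc). Tgfbi had r from -0.12 (with Sparcl1) to 0.44 (with Thbs2) with them. These points share library class and depth, and the low Ptprc-high class is in each, so the values are a description. Among 9831 genes with a mean of at least 10 CPM, the 3 most like each gene were Adgra2 (r = 0.986), Dennd2a and Acvrl1 for Fn1, Prnp (0.987), Gxylt2 and Dact1 for Tnc, and Prrx1 (0.991), Adamtsl3 and Pls3 for Postn. For Sparc they were the fibrillar collagen genes Col1a1 (0.998), Col1a2 (0.997) and Col5a2 (0.997), and for Sparcl1 the small proteoglycan gene Lum (0.989), Pcsk5 and Gpr153. For Thbs1 they were Matn2 (0.985), Igsf10 and Pcdh7, and for Thbs2 Steap4 (0.987), Il11ra1 and Igfbp3. Tgfbi had no partner as close: Slco2b1, Ccl2 and Zmynd15 reached 0.951, 0.951 and 0.948. Slco2b1 was at a median of 548 CPM in the Ccl21a-high and 81.7 CPM in the Ptprc-high libraries, against 23.2 and 30.4 CPM in the Msln-high and remaining ones.

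Other secreted proteins of these families were counted from a list of 21, of which 20 were tested. In the Ptprc-high libraries 19 of 20 were lower than the mean of the other classes and 0 were higher, where 44.0% of all genes were lower and 37.2% higher. Between Ccl21a-high and remaining libraries 5 were higher and 11 lower (22.6% and 24.1% of all genes). The most abundant were Tnxb, encoding tenascin-X, Fstl1, encoding follistatin-like 1, Ccn1, encoding an integrin-binding CCN protein, and Spp1, encoding osteopontin. Tnxb was opposite to Tnc, with medians of 4261 CPM in the remaining and 857 CPM in the Ccl21a-high libraries (log2 difference -2.48 ± 0.24, edgeR adjusted p = 1.46e-09). Spp1 had a median of 1198 CPM (128 to 1899) in the remaining and 0.631 CPM in the Ccl21a-high libraries (-10.22 ± 0.81, edgeR adjusted p = 1.78e-11). Ductal epithelial cells can make osteopontin. A list of ductal genes summed to 263 to 3009 CPM in the remaining, 1150 to 3490 CPM in the Msln-high and 41.1 to 66.6 CPM in the Ccl21a-high libraries. That list includes Spp1, so its sum is not a measure apart from Spp1. The 5 higher genes, named after their values were seen, were Tnn (tenascin-N, median 38.8 against 0.117 CPM), Vtn (vitronectin, 845 against 86.7 CPM), Ccn4, Thbs4 and Ccn1 (3.21, 1.55 and 0.92 on the log2 scale).

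Of 14 receptor genes, 10 were lower and 4 higher in the Ptprc-high libraries than in the mean of the other classes, against 44.0% and 37.2% of all genes. Lrp1, an endocytic receptor of thrombospondins and fibronectin, had a median of 5439 CPM in the remaining and 338 CPM in the Ptprc-high libraries (-3.34 ± 0.26 against the mean of the other classes). The fibronectin receptor subunit Itgb1, the thrombospondin receptor Cd47 and the heparan sulfate proteoglycan Sdc4 were lower by less, at -1.18 ± 0.21, -0.38 ± 0.12 and -0.60 ± 0.17. The 4 higher genes, named after their values were seen, were Stab1, a scavenger receptor that takes up SPARC (7.78 ± 0.41), Cd36, a thrombospondin receptor (6.65 ± 0.54), Itga4, a fibronectin receptor subunit (6.26 ± 0.25), and Itgb3 (0.71 ± 0.26). Itgb3 had medians of 56.8 CPM in the Ptprc-high, 102 in the Msln-high, 83.5 in the remaining and 8.43 CPM in the Ccl21a-high libraries, so it was above the Ccl21a-high median alone. Itga4 had medians of 134 CPM in the Ptprc-high, 13.3 in the Ccl21a-high, 0.608 in the remaining and 0.526 CPM in the Msln-high libraries. Between Ccl21a-high and remaining libraries 2 receptors were higher (Itga4 and Cd36) and 5 lower (22.6% and 24.1% of all genes). Msln-high libraries had 1 higher, Sdc4 (637 against 257 CPM at the median; 1.04 ± 0.23, edgeR adjusted p = 8.51e-04), and 5 lower than remaining ones (18.1% and 18.4% of all genes).

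Genes that act in matrix assembly, 10 in number, were all lower in the Ptprc-high libraries, from -1.69 for P4ha1 to -8.06 for Serpinh1 on the log2 scale, where 44.0% of all genes were lower. Between Ccl21a-high and remaining libraries 6 were lower and 0 higher (24.1% and 22.6% of all genes). Fbln1, encoding fibulin-1, which binds fibronectin, fell from a median of 997.5 to 119 CPM (-3.09 ± 0.27, edgeR adjusted p = 1.78e-10), Loxl1, a collagen and elastin cross-linking enzyme, from 966 to 249 CPM (-2.09 ± 0.26, edgeR adjusted p = 1.27e-07), and Col5a1, which starts collagen fibrils, by -1.29 ± 0.20. The collagen chaperone gene Serpinh1 was at 1249 and 1087 CPM and did not pass (-0.12 ± 0.20, edgeR adjusted p = 0.671). In the Msln-high libraries 5 were lower and 2 (Tgm2 and Plod2) higher than in the remaining ones (18.4% and 18.1% of all genes).

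The study's own comparison is of TG+ with TG- within each labelled population. No gene of the 8 was called in any of the 4 populations, and over all genes the percent called was 0.0 in each (edgeR, 13819 to 17937 genes tested, 273 to 1402 of them at an unadjusted p under 0.05). DESeq2 called 425 genes in CD45, 40 in gp38-high, 1 in gp38-low and 542 in lymph node FRC, 541 of the last lower in TG+. In the libraries labelled lymph node FRC, Fn1 was at 6952, 1791, 259 and 771 CPM in TG- replicates 1 to 4 and 180.1, 336 and 172 CPM in TG+ replicates 2 to 4. Sparc was at 4303, 1941, 14.5 and 7.03 CPM against 4.79, 14.7 and 8.05 CPM. TG- thus held a remaining, an Msln-high and 2 Ptprc-high libraries and TG+ 3 Ptprc-high ones, so that class and genotype were unevenly combined. The 2 TG- and 3 TG+ libraries of the Ptprc-high class overlapped for both genes. The fitted differences of -3.32 ± 1.21 for Fn1 and -7.28 ± 2.53 for Sparc did not pass edgeR's test (adjusted p = 0.696 each), while DESeq2 called both and 5 others of the 8 (adjusted p = 0.00130 to 0.0371), Tgfbi not among them.

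In the libraries labelled gp38-high, Fn1 was at 752 and 747 CPM in TG- and at 6892 and 7384 CPM in TG+ (log2 difference 3.24 ± 1.35, edgeR adjusted p = 0.663). The TG- pair was 1 Msln-high and 1 Ptprc-high library and the TG+ pair 2 remaining ones, so here too the class differs between the genotypes. Among those labelled CD45, Sparcl1 was at 97.3, 76.0, 109 and 2.69 CPM in TG- and at 201, 1025, 41.0 and 666 CPM in TG+ (2.57 ± 1.17, edgeR adjusted p = 0.539). The genotypes overlapped. Among those labelled gp38-low, Postn was at 1.30, 131, 201 and 106 CPM in TG- and at 640, 348, 283 and 409 CPM in TG+. The genotypes did not overlap, and the difference of 1.78 ± 1.09 did not pass (edgeR adjusted p = 0.999). Postn was not alone in this. Thbs1 in the same libraries was at most 491 CPM in TG- and at least 523 CPM in TG+, also without overlap. The other genes of the 8 overlapped. TG- held 1 library of each class, with the 1.30 CPM of Postn in the Ptprc-high and the 106 CPM in the Msln-high library. TG+ held 2 Ccl21a-high and 2 remaining libraries, so class and genotype were again unevenly combined. The share of all genes that separate these genotypes was not counted. Differences of the transgene effect between populations were fitted for all 6 pairs, with 0 calls over all genes and a smallest edgeR adjusted p of 0.113 for the 8.

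With the library class as a covariate and all 27 libraries in 1 fit, edgeR again called 0 of 20045 genes (1875 at an unadjusted p under 0.05), and DESeq2 0. Of the 8, Postn was farthest from 0, higher in TG+ by 0.89 ± 0.22 on the log2 scale (unadjusted p = 4.39e-04, edgeR adjusted p = 0.523, and 0.265 to 0.948 with each library left out in turn), so it failed the correction. The other 7 lay between -0.26 ± 0.27 (Fn1) and 0.37 ± 0.27 (Tnc). In the remaining class, Postn measured 131 and 229 CPM with TG- labels and 325 to 434 CPM with TG+ labels (6 libraries), without overlap. That was not particular to Postn. Thbs1 in the same libraries measured 438 and 588 CPM with TG- and 752 to 1229 CPM with TG+ labels, also without overlap. Postn was at 48.0, 71.7 and 106 CPM in TG- and 180.2 CPM in TG+ of the Msln-high class. That single TG+ library was also the highest of its class for Fn1, Tnc, Sparc, Sparcl1, Thbs1 and Thbs2, though not for Tgfbi. Shares of all genes that separate the genotypes within a class were not counted. In the Ccl21a-high class the Postn values were 201, 207, 332 and 467 against 283, 283 and 640 CPM. In the Ptprc-high class they were 0.213 to 1.30 against 1.04, 1.09 and 3.17 CPM, and both classes overlapped. The 3 Ptprc-high TG+ libraries were all labelled lymph node and the 6 remaining TG+ libraries all islet, so labelled tissue and genotype are not balanced within these classes. In the 19 libraries outside the Ptprc-high class the difference was 0.75 (edgeR adjusted p = 0.40).

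**Figure D5:**
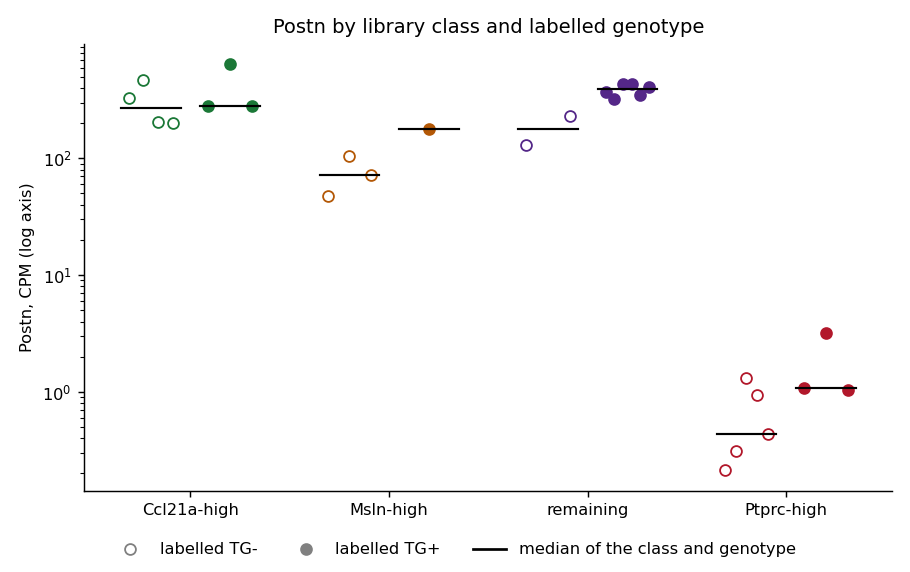
Postn in CPM (log axis) by library class and labelled genotype, open for TG- and filled for TG+, with a black bar at the median of each class and genotype. The TG+ points lie above the TG- points in the remaining class (2 TG- and 6 TG+), and the 1 TG+ point lies above the 3 TG- points in the Msln-high class. They overlap in the other 2 classes.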

How the data were processed

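Per the labels' protocols, RNA of sorted cells was made into 27 libraries with a kit that removes ribosomal RNA. The submitters' processing notes name bcl2fastq 2.17, Trim Galore 0.4.3, STAR 2.5.2a and the build mm10. For the annotation release, the sources used here give nothing. As deposited by the authors, the values are raw read counts per gene, in 1 table for each library. The reverse-strand column was used, since the forward-strand column held 6.67% to 15.3% of the reads on both strands, which keeps Fn1, Tnc, Sparcl1 and Thbs1 apart from genes on the opposite strand. Lines that name no gene, 51.7% to 79.7% of each table's reads, stayed out of library sizes and tests. Symbols, positions and exon lengths came from GENCODE M21 (54409 of 54446 identifiers matched). Depth and the precision it gives stand in the report.

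Groups were taken from the labels and classes from the thresholds in the report. The 8 genes, the classes and the gene lists were chosen with earlier results of these data known. Class differences and transgene differences were tested with edgeR 4.0.16 in R 4.3.3 (TMM, filterByExpr, robust quasi-likelihood test, Benjamini-Hochberg adjustment over all genes tested, threshold 0.05). For gp38-high, which has 2 libraries a genotype, the 12 gp38-high and gp38-low libraries shared 1 fit. Each SE was derived from the log2 difference and its F statistic (difference over the root of F). Named were the 8 genes, the 3 genes most like each (Pearson's r of log2 CPM, prior count 2, mean of at least 10 CPM), and up to 4 genes of each list by mean CPM. Alternatives were DESeq2 1.42.0, relative log expression factors, no count filter, unstranded counts, Gm26917 left out, thresholds doubled or halved, genotype as a covariate, replicate blocks and each library left out. The fits were tested on simulated counts. Of 351 pairs of libraries none were identical. Proteins were not analysed here.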

Additional observations from a re-analysis of the deposited data

Results flagged for a closer look

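In groups of 4 to 10 libraries, single libraries stood apart from the rest of their group (Dixon's test, 95% critical value) in 11 of 40 tests of labelled groups and 1 of 32 tests of library classes, where chance gives about 1 in 20. The library labelled CD45 TG- replicate 4, which is Ptprc-high, was the lowest of its 4 for all 8 genes. It held Fn1 at 120.4 CPM (3656 to 4150.4 in the other 3), Tgfbi at 95.4 (1452 to 1564), Sparc at 6.87, Thbs1 at 6.31, Sparcl1 at 2.69, Thbs2 at 0.567, Postn at 0.213 and Tnc at 0.0 CPM. The library labelled gp38-low TG- replicate 1, also Ptprc-high, was the lowest of its 4 for Thbs1 at 19 CPM (438 to 491 in the others), Sparc at 14.5 CPM and Postn at 1.30 CPM. Within classes, the Msln-high library labelled gp38-high TG- replicate 1 stood below the other 3 for Fn1, at 752 CPM against 1782 to 2107 CPM.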

How the results depend on the processing

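The 4 counts of genes called between classes stayed within 1.5 times the reported count under all alternatives run, and 250 of 256 class differences of the 8 genes kept their direction and side of the threshold outside the leave-one-out fits (855 of 864 within them). The exceptions for doubled thresholds, Thbs1 and Tnc stand in the report. With each library left out, Tgfbi in the Ptprc-high contrast ran from -0.15 to 0.11 and Postn between Ccl21a-high and remaining libraries from -0.045 to 0.23. Transgene counts of 0 became 425, 40, 1 and 542 with DESeq2 (CD45, gp38-high, gp38-low, lymph node FRC) and ran from 0 to 519 in CD45, the latter without TG+ replicate 3; the cause was not tested. Uncalled transgene differences changed sign with libraries left out: CD45 Postn (-0.33 to 0.52), Tgfbi in gp38-high (-1.49 to 0.059), gp38-low (-0.41 to 1.64) and lymph node FRC (-0.90 to 0.13), and, with class as covariate, Thbs1 (-0.23 to 0.13), Sparcl1 (-0.063 to 0.34) and Thbs2 (-0.056 to 0.14). With class as covariate Thbs1 was -0.0015 with no count filter and -0.0013 with unstranded counts, and Fn1 0.017 in the 19 libraries outside the Ptprc-high class, an alternative chosen after seeing the data. Deviations from the labelled group means correlated at -0.14 to 0.61 between same-numbered libraries. Labelled groups mix library classes, so these values cannot show whether such libraries pair. The replicate block called 0 genes in each transgene fit and turned CD45 Tnc to 0.25, and Thbs1 and Thbs2 with class as covariate to -0.016 and -0.047. Class medians of CPM moved by more than 1 SD in 4 of 96 cases. Depth limits Tnc, Postn and Thbs2 in the Ptprc-high class.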
